A study of Mus musculus with 8 samples.

Results

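Cell cycle genes were followed through the cell types of mouse lung grafts. The 44 members were taken as a named list and matched by symbol to the count matrix, in which all 44 were found among 17921 genes. Of these, 25 act in mitosis and the spindle, 15 in DNA replication and the supply of nucleotides, and 4 (Stmn1, Hmgb2, Cks1b and Cks2) are broadly used, with roles in the cycle and outside it. For each graft, the percentage of cells with a UMI (a counted transcript molecule) of Mki67 or Top2a and the summed level of the list were read by deposited cell type, B cell subpopulation and group.

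Genes of the cell cycle are switched on in waves. In late G1 and S phase, E2F factors drive the genes for the replicative helicase (Mcm2 to Mcm7), the sliding clamp Pcna and the enzymes that make deoxynucleotides (Rrm1, Rrm2, Tyms, Tk1, Dut). In G2 and mitosis, MuvB complexes with B-Myb and FoxM1 drive a later wave. This wave includes Cdk1 and its cyclins, the kinetochore and spindle genes, the ubiquitin-conjugating enzyme Ube2c, the topoisomerase Top2a and Mki67. Mki67 codes for the proliferation marker Ki-67. In the lung, alveolar macrophages renew themselves by local division, activated T cells and B cells divide before they become effector cells or antibody-secreting cells, and neutrophils have left the cycle when they enter the tissue.

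Left lungs were transplanted orthotopically into male C57BL/6 (B6) mice and taken 1 month later, with total cells of each graft measured by droplet sequencing of transcript 3′ ends. In the B6→B6 group (control, n = 5) the donors were also C57BL/6. In the HLA→B6 group (chronic rejection, n = 3) the donors carried the human class I transgene HLA-A2.1 on the C57BL/6 background, from the line Tg(HLA-A2.1)1Enge. No mouse of either group received immunosuppression, and cells of the donor and of the recipient were not told apart in the total cells of a graft.

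There were 868 to 6544 cells per graft and median depths of 1356 to 1948 UMIs per cell. Several libraries shared cell barcodes. B6→B6 1, 2 and 3 and HLA→B6 2 were linked in this way, and 1014 of 20778 cells had a barcode that was also in another library. The label myeloid cell and B6→B6 4 stood apart from their names or their group, as given below. The deposited label leukocyte carried neutrophil genes, with 18223 counts per 1000000 UMIs of the same cells (CPM) of the list Csf3r, Retnlg, Mmp9 and Cxcr2. All 954 cells of T cell cluster 7 came from B6→B6 4.

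Promoters of the members differed by role in the letters they held, and 5 are shown, chosen as given below. The sequences are from RefSeq on GRCm38.p6, from 250 bases before to 50 bases after the gene start, read 5′ to 3′ on the strand of the gene. Capitals mark the CCAAT box (CCAAT or ATTGG), the CHR element (TTTGAA or TTCAAA), which the MuvB complexes read, and an E2F site (TTTGGCGC, TTTCGCGC, TTTCCCGC or TTTGGCGG, on either strand). Where 2 matches overlap, as in CCAATTGG of Ube2c and in the first E2F match of Mcm6, the capitals run on. Top2a, Ube2c, Rrm2 and Pcna were the mitosis and the replication members of highest level in cells with a Mki67 or Top2a UMI whose promoter held a match, and Mcm6 was added after the matches were counted, for its E2F letters.
Top2a (chr11:99024140-99024439, minus strand): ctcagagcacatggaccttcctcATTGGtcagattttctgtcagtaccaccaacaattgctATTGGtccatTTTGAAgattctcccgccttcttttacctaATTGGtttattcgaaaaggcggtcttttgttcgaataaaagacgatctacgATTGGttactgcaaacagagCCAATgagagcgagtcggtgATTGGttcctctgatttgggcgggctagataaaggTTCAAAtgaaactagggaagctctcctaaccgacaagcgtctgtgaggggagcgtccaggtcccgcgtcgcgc
Ube2c (chr2:164769679-164769978, plus strand): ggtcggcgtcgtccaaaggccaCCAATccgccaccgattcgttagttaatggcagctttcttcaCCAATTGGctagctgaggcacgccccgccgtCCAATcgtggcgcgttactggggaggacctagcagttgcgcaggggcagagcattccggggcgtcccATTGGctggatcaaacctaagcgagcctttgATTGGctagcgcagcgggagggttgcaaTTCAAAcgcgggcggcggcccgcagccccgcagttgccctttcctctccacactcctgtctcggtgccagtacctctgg
Rrm2 (chr12:24708004-24708303, plus strand): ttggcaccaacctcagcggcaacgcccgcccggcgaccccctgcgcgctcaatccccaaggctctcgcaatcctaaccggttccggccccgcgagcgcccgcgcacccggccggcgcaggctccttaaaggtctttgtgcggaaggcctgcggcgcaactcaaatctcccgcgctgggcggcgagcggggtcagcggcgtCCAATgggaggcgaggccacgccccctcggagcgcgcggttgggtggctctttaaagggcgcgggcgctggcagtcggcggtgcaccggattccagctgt
Pcna (chr2:132253131-132253430, minus strand): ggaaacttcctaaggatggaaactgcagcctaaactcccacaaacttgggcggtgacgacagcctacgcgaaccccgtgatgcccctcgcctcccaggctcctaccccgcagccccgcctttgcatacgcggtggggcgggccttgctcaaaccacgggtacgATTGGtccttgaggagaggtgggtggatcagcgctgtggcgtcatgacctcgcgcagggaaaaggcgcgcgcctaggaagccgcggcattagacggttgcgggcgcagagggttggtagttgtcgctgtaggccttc
Mcm6 (chr1:128359656-128359955, minus strand): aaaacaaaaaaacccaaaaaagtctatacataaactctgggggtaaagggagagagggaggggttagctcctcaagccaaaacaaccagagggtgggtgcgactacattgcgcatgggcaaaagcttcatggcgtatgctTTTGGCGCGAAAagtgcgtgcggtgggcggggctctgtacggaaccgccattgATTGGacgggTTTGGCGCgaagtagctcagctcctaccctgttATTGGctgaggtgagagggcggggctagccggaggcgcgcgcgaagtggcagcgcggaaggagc

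The table held 40 promoters of 36 of the 44 members and 32851 promoters in all. A member with several promoters was counted once, at its highest count for each kind of letters. Matches of different kinds can thus come from different promoters of a member. The shares of all promoters were counted promoter by promoter, which is not the same unit. A CCAAT box was in 19 of 21 mitosis promoters (90.5%), in 8 of 12 replication promoters (66.7%) and in 37.4% of all promoters. A CHR element was in 16 of 21 mitosis promoters (76.2%), in 1 of 12 replication promoters (8.33%) and in 17.9% of all promoters. The same 16 mitosis members held both, against 6.95% of all promoters. The E2F letters showed the opposite order, with 1 of 21 mitosis promoters (4.76%), 5 of 12 replication promoters (41.7%) and 2.37% of all promoters. In the Top2a promoter there were 6 CCAAT boxes, and CHR letters started 23 and 179 bases before the gene start. The Ube2c promoter likewise held 6 CCAAT boxes, with CHR letters 29 bases before the start. In the Rrm2 and Pcna promoters there was 1 CCAAT box each and no match to the other letters. A match is a description of these letters, not a binding site, and no match says only that the letters were not in this window. No promoter was in the table for Stmn1, Gins2, Ccna2, Aurkb, Tpx2, Ccne2, Mcm4 or Kif20a.

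Mki67 lies on chromosome 7 (GRCm38 positions 135689784 to 135716361, minus strand) and Top2a, the topoisomerase that untangles sister chromatids, on chromosome 11 (98992943 to 99024189, minus strand). A UMI of Mki67 was in 270 cells and a UMI of Top2a in 421 cells. Together 534 of 20778 cells held either gene, which is 2.57% (exact 95% binomial interval 2.36% to 2.79%, counting error only). Of these cells 157 held both. They were deeper than the others, with a median of 3002 against 1497 UMIs, and 0.936% were marked as doublets against 1.24% of the others.

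By deposited type, these cells were most frequent under the label myeloid cell. The percentage there was 22.9 ± 17.3 (mean ± SD over 8 grafts), and 217 of 755 cells carried a UMI in all. Plasma cells followed with 9.69 ± 2.01% in the 2 grafts that had at least 20 of them, and alveolar macrophages with 3.81 ± 1.67%. Mast cells had 3.45% in the 1 graft with at least 20 of them. T cells had 2.44 ± 1.18%, natural killer (NK) cells 1.34 ± 1.52%, B cells 1.20 ± 1.06%, the neutrophil-like label leukocyte 1.15 ± 1.71% (5 grafts), monocytes 0.655 ± 0.694% and lung structural cells 0.534 ± 0.397%. Myeloid cells were above plasma cells, and plasma cells above alveolar macrophages, in the 2 grafts that could be compared, whereas mast cells were above alveolar macrophages in the 1 graft that had both. The lower neighbours did not differ beyond their spread, since T cells exceeded NK cells in 5 of 8 grafts, NK cells exceeded B cells in 4 of 8, and monocytes exceeded structural cells in 3 of 8. None of the 32 type 2 pneumocytes had a UMI, which allows up to 9.38%. Structural cluster 4, whose UMIs were 953477 CPM of the red blood cell list, had 3 of 322 cells (0.932%) at a median of 5067.5 UMIs. Few UMIs were left there for other genes, so its percentages are no background of free RNA for other types. At 1000 UMIs per cell, that cluster had 0.183%, against 20.4% for myeloid cells, 2.18% for alveolar macrophages, 1.86% for plasma cells, 1.20% for T cells, 1.11% for NK cells, 0.529% for B cells, 0.378% for structural cells and 0.206% for monocytes, so that plasma cells were no longer above alveolar macrophages.

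**Figure D1:**
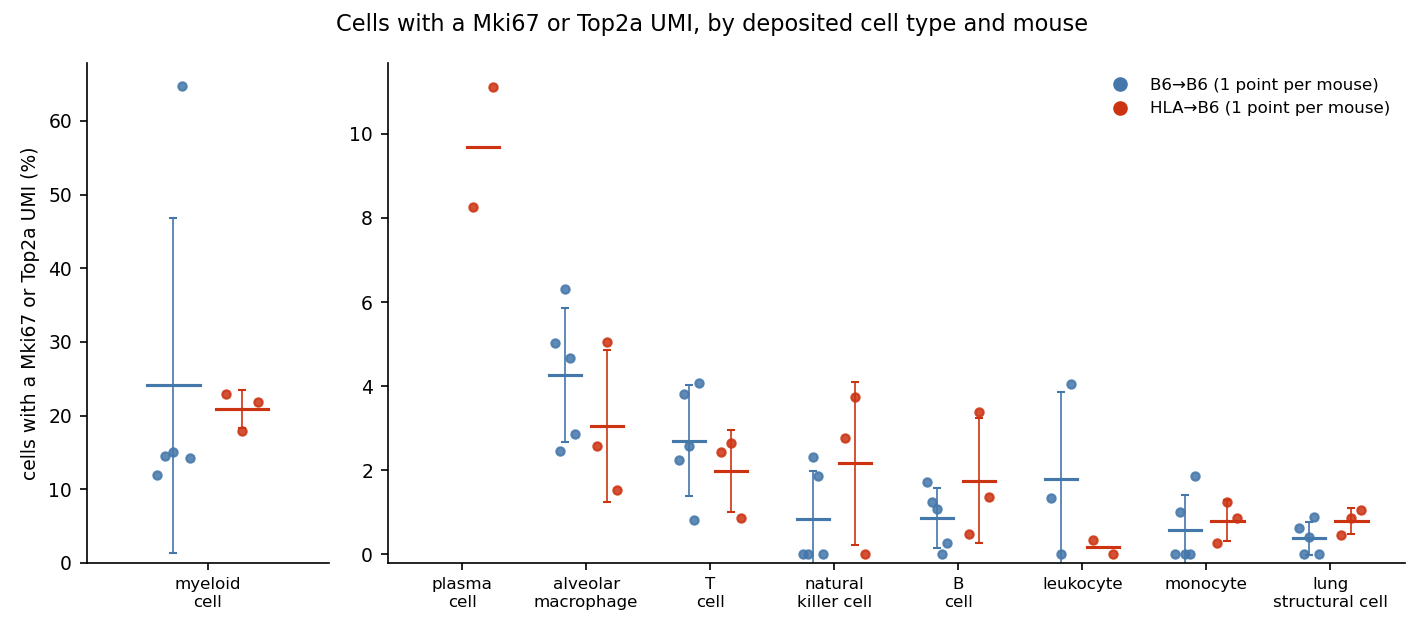
Percentage of cells with a Mki67 or Top2a UMI (y axis) by deposited cell type (x axis), 1 point per graft with at least 20 cells of the type, with the group mean (line) and SD (bars, drawn for 3 or more grafts and ending at the axis). The myeloid panel has its own y axis, on which B6→B6 4 sits at 64.7% and the 7 other grafts between 11.9% and 22.9%.

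Whether a Mki67 or Top2a UMI came with the rest of the list depended on the label. Among myeloid cells with such a UMI the median number of the 42 other members in the same cell was 22, and 202 of 217 cells (93.1%) had at least 3 of the 38 members that remain without Stmn1, Hmgb2, Cks1b and Dut, which cells out of the cycle also use (Pcna and Cks2, which many cells also held, were kept). Among alveolar macrophages the median was 12, and 69 of 101 cells (68.3%) had at least 3. Under the T cell label the median was 1.5 and only 13 of 106 cells (12.3%) had at least 3. The numbers were 5 of 14 plasma cells, 4 of 26 B cells, 1 of 19 NK cells and 3 of 34 structural cells. Over all types it was 299 of 534 cells (55.99%), against 4.18% of cells without a Mki67 or Top2a UMI. Under the labels T cell, B cell, NK cell and structural cell, most cells with a UMI thus had fewer than 3 of these members.

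Cells were also sorted by their own lineage genes, whatever their label. A cell was put into the gate whose marker list had at least 2 UMIs and more than 3 times those of the next list. In the T cell gate (Cd3d, Cd3e, Cd3g, Trac, Trbc1 and Trbc2) the members were found together within cells. At an equal depth of 1000 UMIs, Stmn1, which destabilises microtubules, was in 52.4% of cells with a Mki67 or Top2a UMI and in 6.59% of the others. Birc5 (survivin) was in 29.3% and 0.280%, Rrm2, a subunit of ribonucleotide reductase, in 27.1% and 0.637%, and Ube2c in 25.1% and 0.395%. The replication clamp Pcna was less selective, with 24.4% and 7.27%. In alveolar macrophages the same contrast was 44.9% and 3.64% for Stmn1, 24.2% and 0.706% for Birc5, and 27.1% and 9.01% for Pcna. B6→B6 4 gave 114 of the 237 T-gated cells with a UMI. Of these 237 cells, 146 (61.6%) had at least 3 of the 38 members, and without B6→B6 4 it was 37.4%. All 42 other members were more frequent in cells with a Mki67 or Top2a UMI in both sets. Since Mki67 and Top2a define the sets and cells are not replicates, these are descriptions.

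**Figure D2:**
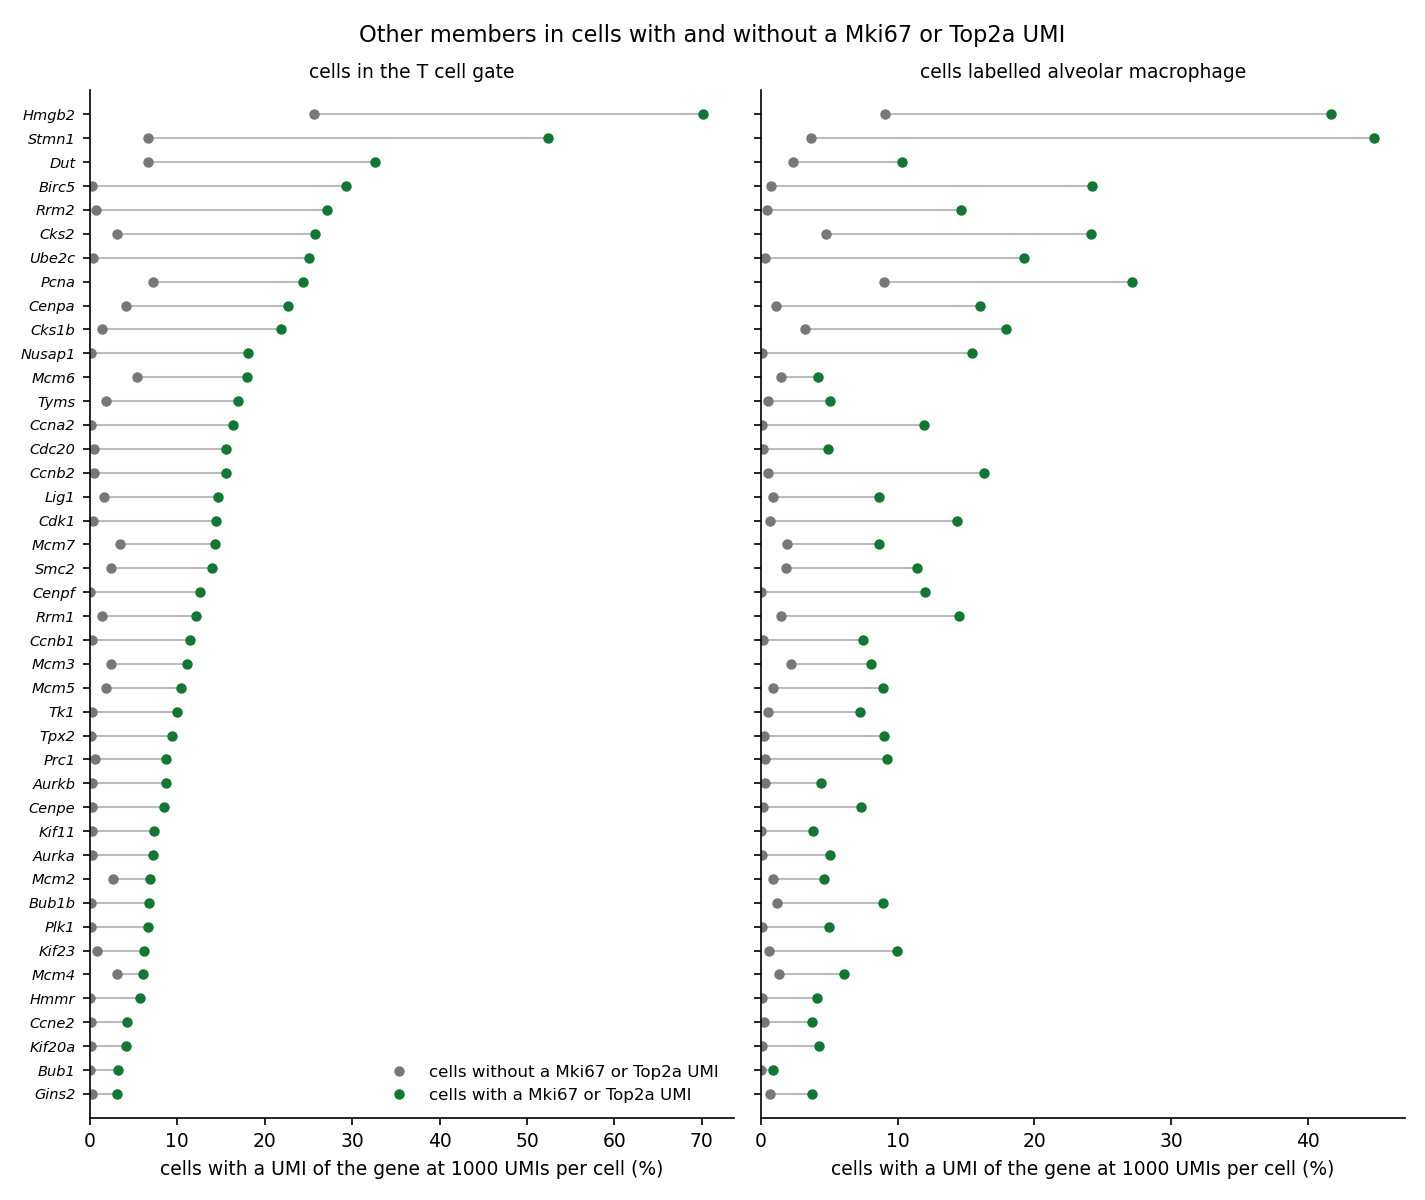
Percentage of cells with a UMI of each of the 42 other members at 1000 UMIs per cell (x axis), for cells with (green) and without (grey) a Mki67 or Top2a UMI, in the T cell gate and under the alveolar macrophage label, pooled over grafts, B6→B6 4 giving 114 of the 237 T-gated cells with a UMI. Every green point lies to the right of its grey point, from Bub1 at 3.20% against 0.0185% to Hmgb2 at 70.1% against 25.7% in the T cell gate.

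The label myeloid cell held cells of several lineages, and its Mki67 or Top2a UMIs were mostly in T cells in B6→B6 4 and spread over more gates in the other grafts. Of its 755 cells, 171 fell in the T cell gate, and 135 of these (78.9%) had a UMI. The dendritic cell gate held 106 cells, of which 5 (4.72%) had a UMI, and the monocyte and other macrophage gate held 32, of which 3 had. A further 412 cells met no gate and 53 of them (12.9%) had a UMI. B6→B6 4 alone gave 120 of the 171 T-gated cells and 102 of the 135 with a UMI. Without it, 33 of the 107 cells with a UMI (30.8%) were T-gated and 47 met no gate. Per graft, 5 of 42, 10 of 69, 11 of 73, 110 of 170 and 3 of 21 myeloid cells had a UMI in B6→B6 1 to 5, and 40 of 175, 31 of 173 and 7 of 32 in HLA→B6 1 to 3. Every graft other than B6→B6 4 thus lay between 11.9% and 22.9%, and the groups overlapped through B6→B6 4 alone.

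**Figure D3:**
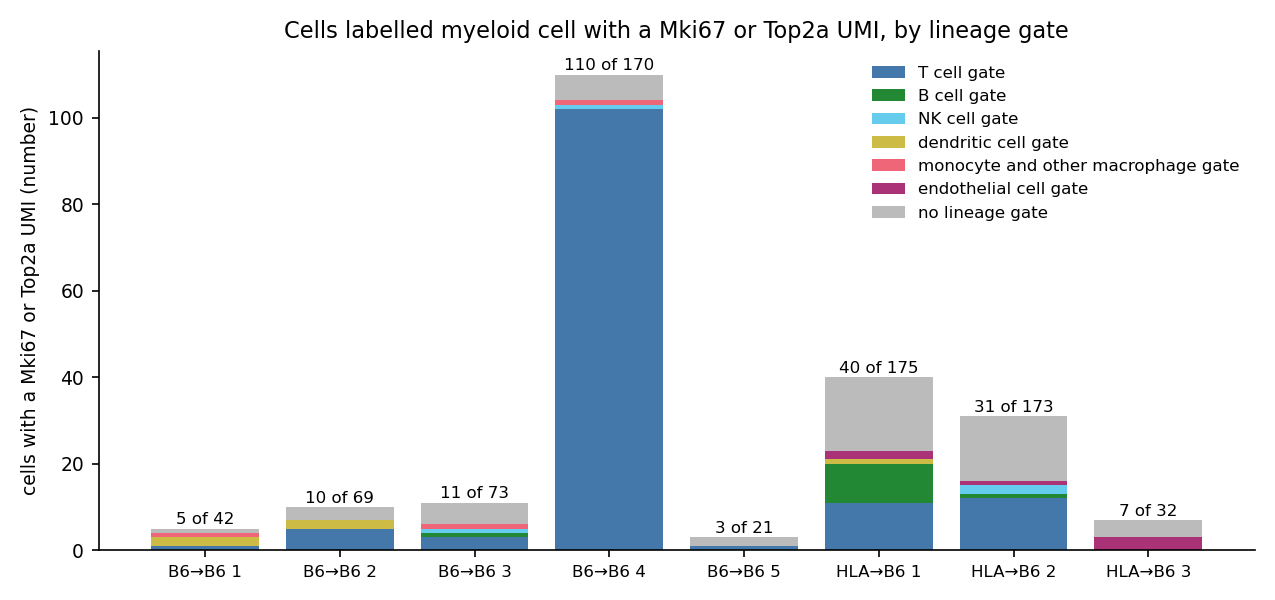
Number of cells labelled myeloid cell with a Mki67 or Top2a UMI (y axis) in each graft (x axis), stacked by lineage gate. The numbers above the bars give these cells of all cells with the label, and the T cell gate makes up 102 of the 110 in B6→B6 4.

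Seen from the T cell side, the deposited label separated T cells by the cycle. Of 237 T-gated cells with a Mki67 or Top2a UMI, 135 (57.0%) carried the label myeloid cell, against 36 of 4469 (0.806%) of the T-gated cells without one. In B6→B6 4 it was 102 of 114 (89.5%), and in the other grafts that had at least 14 such cells it was between 21.4% and 29.4%. The T-gated cells under the myeloid label carried the list at 19369 CPM in B6→B6 4, 18473 in HLA→B6 1 and 16982 in HLA→B6 2, the only grafts with at least 10 of them. Top2a was at 897 CPM, 616 CPM and 678 CPM in these 3 grafts, and Mki67 at 367 CPM, 220 CPM and 264 CPM. Under the T cell label Mki67 was between 0 and 3.93 CPM and the summed list between 762 and 1111 CPM.

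By the T cell gate, B6→B6 1 to 5 had 3.09%, 5.36%, 3.87%, 7.54% and 4.13% of cells with a UMI, and HLA→B6 1 to 3 had 3.74%, 4.10% and 1.05%. The groups overlapped and the difference of the means was -1.84 percentage points (exact permutation test, two-sided, p = 0.214). Of the 237 cells, 116 (48.9%) had Cd8a or Cd8b1 and no Cd4, and 47 (19.8%) had Cd4 alone, against 45.9% and 12.2% of T-gated cells without a UMI. Both kinds of gene were in 31 of the 237 cells, and 28 of these were from B6→B6 4. Among T-gated cells without a UMI, 271 of 1397 held both in B6→B6 4, against 24 of 3072 in the other grafts. B6→B6 4 thus stood apart in its T cells with or without a UMI. Without B6→B6 4 the CD4 share was 35.0% with a UMI and 15.4% without, and the CD8 share 38.2% and 42.5%. Cd4 alone was more frequent among the cells with a UMI in 6 of 8 grafts, the exceptions being B6→B6 4 (3.51% against 5.15%) and HLA→B6 3, which had 2 such cells. Foxp3, the regulatory T cell factor, was in 14 of the 237 cells.

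The lineage genes also placed a few cells of the antibody-secreting line under the myeloid label. Of its 15 B-gated cells 11 had a Mki67 or Top2a UMI, and 9 of these were from HLA→B6 1, where all 9 B-gated cells had one at a median depth of 12580 UMIs. Among the 11, Cd79a and Mzb1 were each in 10, Xbp1 in 7 and Jchain in 5, and Pclaf, a PCNA-binding replication factor, was in 11. Pooled over the 15 cells, Ube2c was at 859 CPM, Birc5 at 589 CPM and Top2a at 572 CPM.

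In B cells the percentage was higher in subpopulations 1 and 2 than in subpopulation 0. Subpopulation 0, which holds most B cells, had a Mki67 or Top2a UMI in 12 of 1895 cells (0.633%, exact interval 0.328% to 1.10%). Subpopulation 1 had 14 of 210 (6.67%, 3.69% to 10.9%), subpopulation 2 had 12 of 172 (6.98%), and subpopulation 3 had 1 of 157. Depth differed between them, and at 1000 UMIs the percentages were 0.314% in subpopulation 0, 2.33% in subpopulation 1 and 1.63% in subpopulation 2. Subpopulation 3 had a median of 533 UMIs and only 1 cell that reached 1000, so its low percentage cannot be told apart from low depth. Subpopulation 1 had 0 of 20 and 2 of 22 cells with a UMI in B6→B6 2 and 3, and 3 of 74 and 8 of 70 in HLA→B6 1 and 2. The groups overlapped, and with 2 grafts in each the smallest p is 0.333 (exact permutation test, two-sided, p = 0.667). Birc5, Ccna2, Ccnb2, Nusap1 and 6 other members had no UMI in its 210 cells, while Mcm6 was at 61.5 CPM and Pcna at 52.3 CPM. Plasma cells with a UMI were 10 of 121 in HLA→B6 1, 3 of 27 in HLA→B6 2 and 1 of 7 in B6→B6 3. All 14 had Jchain, Mzb1 and Xbp1, 9 had Sdc1, and 3 had Ms4a1.

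Several members were abundant in types with few Mki67 or Top2a UMIs. Hmgb2, a chromatin protein, was at 1208 to 2234 CPM in the neutrophil-like cells, in 60.8% of 1390 cells, where 0.504% had a Mki67 or Top2a UMI. Cks2, a subunit of the cyclin-dependent kinase complex, was at 875 and 909 CPM in mast cells of B6→B6 2 and 3 and at 691 CPM in those of HLA→B6 1, of which 1 of 85 cells had a Mki67 or Top2a UMI. Stmn1 was in 28.2% of structural cells, at 48.9 to 377 CPM per graft, and 30.6% of all its UMIs lay there. By contrast, 66.5% of Mki67 UMIs, 68.6% of Top2a UMIs and 78.3% of those of the cyclin Ccna2 lay under the myeloid label. The helicase gene Mcm4 had 15.0% there and 31.5% under the T cell label.

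Ube2c and the spindle gene Nusap1 were found mostly without the rest of the list in the red blood cell cluster. In structural cluster 4, Ube2c was in 84 of 322 cells (26.1%) and Nusap1 in 46 (14.3%), against 1.27% and 0.154% of other structural cells. Per graft with at least 10 of these cells, Ube2c was at 60.2, 80.3 and 206 CPM in B6→B6 3, 4 and 5 and at 36.7, 80.2 and 83.6 CPM in HLA→B6 1 to 3. Both genes were detected in all 6 grafts. Mki67 had no UMI in the cluster, Top2a had 3, and 22 of the 44 members had none. Of the 110 cells with a Ube2c or Nusap1 UMI, 14 (12.7%) had any of the 42 other members, against 191 of 191 such cells under the myeloid label and 66 of 69 alveolar macrophages. Few UMIs of the cluster were outside the red blood cell list, which limits this comparison with other labels. The cluster gave 69.2% of the Ube2c UMIs and 88.5% of the Nusap1 UMIs found under the label lung structural cell.

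The groups were then compared to ask whether rejecting grafts held more cells in the cycle. Over all cells, 2.11%, 2.59%, 1.85%, 4.15% and 1.61% had a Mki67 or Top2a UMI in B6→B6 1 to 5 and 1.76%, 3.49% and 1.61% in HLA→B6 1 to 3. The groups overlapped, with a difference of -0.177 points (exact permutation test, two-sided, p = 0.786; 0.0357 is the smallest p that 5 against 3 grafts allow), which became 0.244 points without B6→B6 4. Of 8 deposited types, 2 B cell subpopulations and 7 gates that could be tested, none passed the threshold of 0.05 in exact permutation tests before or after Benjamini-Hochberg adjustment. The unadjusted p was 0.393 for alveolar macrophages, 0.571 for T cells, 0.321 for B cells, 0.286 for NK cells, 0.786 for myeloid cells and 0.179 for structural cells (exact permutation tests). The smallest was 0.143, for the B cell gate, with 1.72%, 1.25%, 1.34%, 0% and 0.275% in B6→B6 1 to 5 and 3.05%, 3.98% and 1.04% in HLA→B6 1 to 3 (1.77 points, adjusted p = 0.500). Without B6→B6 4 the myeloid label differed by 6.95 points, with each HLA→B6 graft above the 4 B6→B6 grafts left, and the smallest p that 4 against 3 allow (exact permutation test, p = 0.0571).

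Alveolar macrophages showed a difference once depth was made equal. At 1000 UMIs per cell, 4.49%, 3.04%, 3.21%, 2.50% and 2.89% had a Mki67 or Top2a UMI in B6→B6 1 to 5, and 1.12%, 1.45% and 1.54% in HLA→B6 1 to 3. The groups did not overlap and the difference was -1.86 points (exact permutation test, p = 0.0357, the smallest possible, over all cells of the label with at least 1000 UMIs, 1 of 159 alternatives and not adjusted). Without thinning the percentages were 5.03, 2.46, 6.32, 4.67 and 2.86 against 2.58, 5.06 and 1.54, and the groups overlapped. The HLA→B6 2 cells had a median of 7144 UMIs, against 803 to 3837 in the other grafts. The medians of B6→B6 2 (803) and HLA→B6 3 (897) were under 1000 UMIs, so most of their cells were left out by the thinning.

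Counts summed per graft and type were compared by edgeR's quasi-likelihood test, with adjusted p over all genes. In such sums, fewer cells with a transcript and less transcript per cell cannot be told apart. In alveolar macrophages 22 of the 44 members passed the filter on low counts, 11 of them fell in HLA→B6 and none rose. Among all 5798 genes tested, 12.3% were called in either direction and 5.92% were called lower in HLA→B6. The median log2 fold change of the 22 was -1.35, against -0.03 over all genes, and each of the 22 had a fold change below 0. A further 9 had an unadjusted p under 0.05, which made 20 of the 22, and DESeq2 called 13. Over the 5798 genes, 1686 had an unadjusted p under 0.05 and DESeq2 called 709. The share of members called was thus above the background, and the 22 members below the filter are not described by it. Leaving out HLA→B6 2 left 1 of 28 tested members called (Cks2), against 180 of 6165 genes. Leaving out B6→B6 1, 3 or 5 or HLA→B6 1 left 6, 7, 7 and 7. Without the scaling by TMM the median of all genes was at -0.24 on the log2 scale.

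Among the mitosis members, Top2a was at 79.1, 39.7, 30.5, 35.5 and 67.9 CPM in B6→B6 1 to 5 and at 12.8, 8.98 and 22.4 CPM in HLA→B6 1 to 3. The groups did not overlap, and Top2a fell by 1.72 ± 0.39 (log2, SE; edgeR adjusted p = 0.0200). Birc5 was at 82.4, 48.0, 67.1, 34.2 and 55.3 CPM against 15.6, 11.4 and 30.8 CPM. It fell by 1.53 ± 0.36 on the log2 scale (edgeR adjusted p = 0.0219). Cdk1, the kinase that starts mitosis, fell by 1.48 ± 0.40 (edgeR adjusted p = 0.0350) and Nusap1 by 2.23 ± 0.49 (edgeR adjusted p = 0.0183), from a mean of 29.4 to 4.98 CPM. Mki67 itself had a log2 fold change of -1.32 ± 0.42 (edgeR adjusted p = 0.0628), with 26.4, 25.1, 26.4, 14.8 and 32.7 CPM against 3.55, 10.3 and 8.39 CPM, so that it missed the threshold although its groups did not overlap.

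Of the replication members, Rrm2 was at 19.8, 27.1, 30.5, 22.9 and 12.6 CPM in B6→B6 1 to 5 and at 3.55, 4.63 and 8.39 CPM in HLA→B6 1 to 3. It fell by 2.01 ± 0.39 (edgeR adjusted p = 0.0115), and its partner Rrm1 fell by 1.39 ± 0.27 (edgeR adjusted p = 0.0118). The helicase subunits Mcm4 and Mcm7 fell by 1.63 ± 0.33 and 1.28 ± 0.33 (edgeR adjusted p = 0.0138 and 0.0303), whereas Mcm3 was at -0.21 ± 0.23. Pcna was at -0.58 ± 0.20 and did not pass (edgeR adjusted p = 0.0810), at 135 ± 27.2 CPM in B6→B6 and 78.4 ± 4.68 CPM in HLA→B6 with no overlap. Of the broadly used members, Stmn1 fell by 1.60 ± 0.38, Cks1b by 1.27 ± 0.33 and Cks2 by 1.84 ± 0.33 (edgeR adjusted p = 0.0230, 0.0298 and 0.0097), and Hmgb2 was at -0.60 ± 0.25 and not called. The values of all 11 called members did not overlap between the groups. This is no further evidence, since the 11 were called on these same values.

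**Figure D4:**
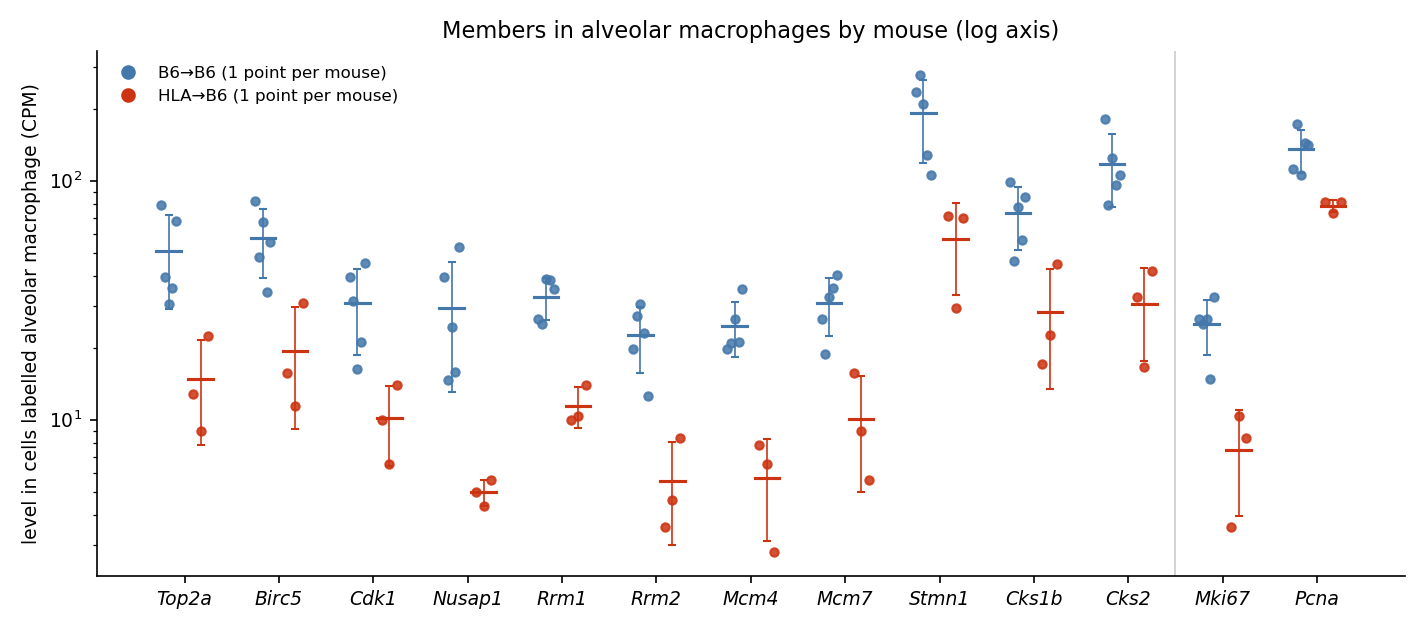
Level in CPM (y axis, log scale) of the 11 members called in alveolar macrophages (left of the line) and of Mki67 and Pcna (right of it), 1 point per graft with the group mean (line) and SD (bars). In each of the 13 genes the 3 HLA→B6 points lie below the 5 B6→B6 points, as for Cks2 at 79.3 CPM or more in B6→B6 and 41.96 CPM or less in HLA→B6.

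The cells under this label were not alike in the groups, however. The 5 alveolar macrophage markers (Marco, Siglecf, Krt79, Plet1 and Mrc1) were all detected in every graft and summed to 1803, 1524, 1544, 1860 and 2252 CPM in B6→B6 1 to 5 and to 634, 58.8 and 565 CPM in HLA→B6 1 to 3. The 6 markers of monocytes and other macrophages (Ccr2, Ly6c2, Ms4a7, C1qa, C1qb and C1qc) summed to 1441, 4417, 5026, 437 and 103 CPM against 9087, 7349 and 4666 CPM, and all were also detected in each graft. The alveolar list separated the groups as the members did, and the monocyte list nearly did. In HLA→B6 2 only 1.56% of the cells met the alveolar macrophage gate, and 78.2% met the other gate. The summed members were at 1816, 1451, 1668, 1223 and 1613 CPM in B6→B6 1 to 5 and at 679, 463 and 730 CPM in HLA→B6 1 to 3. B6→B6 2 and 3, whose monocyte list was near that of HLA→B6 3, had summed members of 1451 and 1668 CPM against 730 CPM. These grafts were not alike in make-up, since their alveolar lists were at 1524 and 1544 CPM against 565 CPM. The alveolar macrophage gate held 33.5% and 51.1% of their cells against 17.7%.

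**Figure D5:**
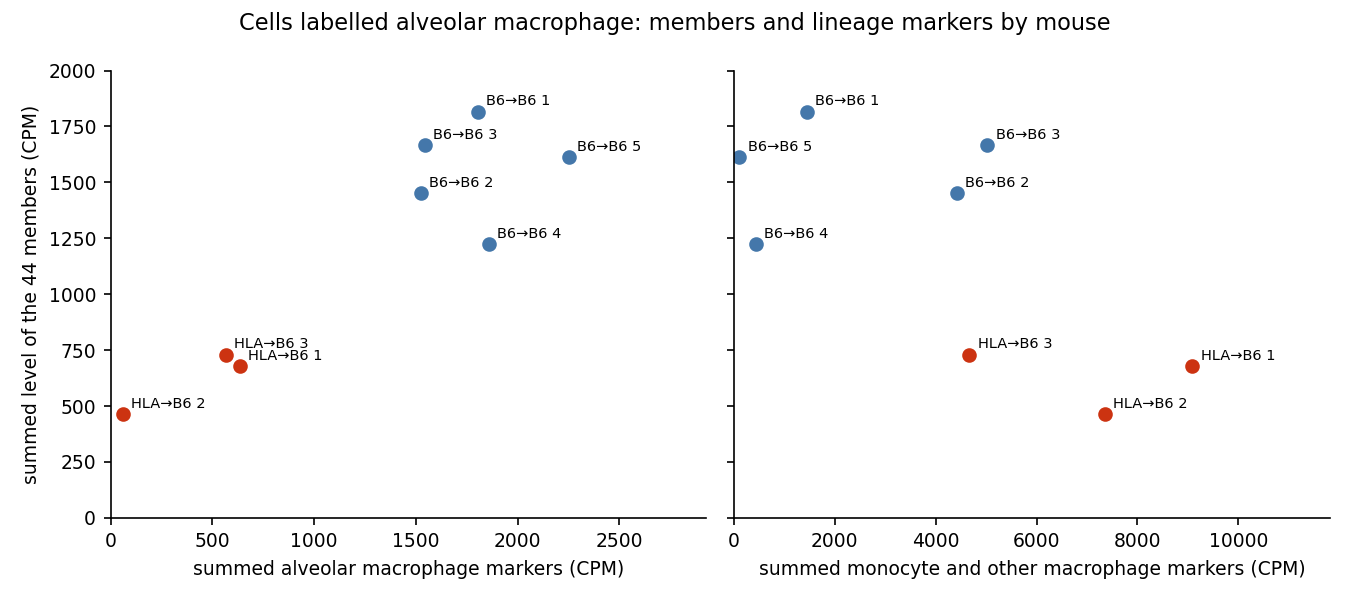
Summed level of the 44 members (y axis, CPM) against the summed alveolar macrophage markers (left) and the summed markers of monocytes and other macrophages (right) in cells labelled alveolar macrophage, 1 labelled point per graft. On the left the HLA→B6 grafts lie low on both axes (58.8 to 634 CPM of markers), and on the right B6→B6 2 and 3 lie near HLA→B6 3 on the x axis and above it on the y axis.

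Within the label, the members were therefore read in each gate, with fits that were added after the data were seen. In cells of the alveolar macrophage gate they summed to 1735, 1788, 1847, 1320 and 1706 CPM in B6→B6 1 to 5, and to 1108 and 413 CPM in HLA→B6 1 and 3, HLA→B6 2 having fewer than 10 such cells. Both HLA→B6 values were below each B6→B6 value. Of 13 members tested there, edgeR called 1, Cks2, which fell by 1.71 ± 0.38 (adjusted p = 0.0278), against 1.29% of all genes. DESeq2 called none of the 13, against 60 of 4185 genes. An unadjusted edgeR p under 0.05 was found for 4 of the 13 and for 515 of the 4185 genes. In the monocyte and other macrophage gate the sums were 361, 335, 1301 and 322 CPM in B6→B6 1 to 4 and 613, 435 and 484 CPM in HLA→B6 1 to 3, which overlapped, and 0 of 2 tested members were called (1.91% of all genes; DESeq2 also 0, and 0 at an unadjusted p under 0.05). The summed members were thus lower in the monocyte gate than in the alveolar gate in 5 of the 6 grafts that had both, the exception being HLA→B6 3. The part of the changed make-up in the fall under the whole label was not tested.

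In the other types edgeR called 0 members under each main label. Over all cells 0 of 41 tested members and 0% of 11584 genes were called. An unadjusted edgeR p under 0.05 was found for 7 members and for 815 genes, and DESeq2 called 0 members and 119 genes. The background was 0.0698% in T cells (0 of 18 members), 0.422% in T cell cluster 1 alone (0 of 18), 0.117% in B cells (0 of 14), 0.604% in structural cells (0 of 12), 0.023% in monocytes (0 of 3), 0% in myeloid cells (0 of 39), 0% in NK cells (0 of 5) and 0% in the neutrophil-like cells (0 of 2). At an unadjusted edgeR p under 0.05 there were 2 members in T cell cluster 1 and 1 each in B cells, structural cells and NK cells, and none in the others. Over all genes it was 637 of 7106, 283 of 6001, 676 of 8109 and 97 of 2987, respectively. DESeq2 called no member in any of these types. Without B6→B6 4, edgeR called 2 of 36 tested members under the myeloid label, against 27 of 4210 genes. These were Aurkb and Top2a, both higher in HLA→B6. Stmn1 in T cells was at 39.9, 37.96, 52.1, 231 and 24.2 CPM in B6→B6 1 to 5 and at 52.8, 32.3 and 42.4 CPM in HLA→B6 1 to 3, so that B6→B6 4 alone stood out. Its T cell cluster 7 had Stmn1 at 424 CPM with Mki67 at 5.28 CPM.

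Under the myeloid label the T-gated cells of B6→B6 4 set the level, with Top2a at 662 CPM there and at 38.9 to 94.0 CPM in the other B6→B6 grafts. Fits of parts of this label were added after the data were seen. Outside the T cell gate, Top2a was at 36.7, 32.1, 37.7, 47.2 and 42.2 CPM in B6→B6 1 to 5 and at 169, 103 and 319 CPM in HLA→B6 1 to 3. The groups did not overlap, and Top2a was higher in HLA→B6 by 2.04 ± 0.37 (log2, SE; edgeR adjusted p = 0.0237), the only 1 of 28 tested members called, against 0.846% of all genes. Ube2c was at 48.9, 125, 33.9, 51.5 and 0 CPM against 225, 95.02 and 437 CPM (1.75 ± 0.54, edgeR adjusted p = 0.169). DESeq2 called both Top2a and Ube2c, and 63 of 3547 genes in all. Mki67 was at 24.4, 46.4, 26.4, 38.6 and 0 CPM against 81.5, 29.1 and 50.4 CPM and overlapped. In this set 24 of the 28 members had a fold change above 0, with a median of 0.66 against -0.02 over all genes. The cells outside the T cell gate differed in lineage between the groups, however. All 11 endothelial-gated cells of the label were from HLA→B6 grafts, and 9 of the 15 B-gated cells were from HLA→B6 1. Outside the T cell, B cell and endothelial gates, Top2a was at 36.7, 32.3, 27.0, 47.2 and 42.6 CPM in B6→B6 1 to 5 and at 96.3, 60.5 and 80.6 CPM in HLA→B6 1 to 3. The groups still did not overlap, but Top2a did not pass (1.07 ± 0.33, edgeR adjusted p = 0.155). There 0 of 21 tested members were called by edgeR or by DESeq2, against 0.963% of all genes by edgeR. An unadjusted edgeR p under 0.05 was found for 1 member and for 378 of 3428 genes, and the median of the 21 was 0.02.

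Other genes of the cycle were read from lists of 83 genes that are not members. In alveolar macrophages 8 of 23 tested passed, 7 lower and 1 higher in HLA→B6, against 12.3% of all genes. Of the G1 genes, the D cyclins Ccnd2 and Ccnd3, which activate the G1 kinases, fell by 2.40 ± 0.43 and 1.07 ± 0.24 and the kinase gene Cdk6 by 1.47 ± 0.39 (edgeR adjusted p = 0.0097, 0.0200 and 0.0340), while Cdk4 rose by 0.84 ± 0.23 (edgeR adjusted p = 0.0399). Ccnd2 was at 162, 161, 218, 212 and 201 CPM in B6→B6 1 to 5 and at 61.1, 11.2 and 22.4 CPM in HLA→B6 1 to 3, with no overlap. In the alveolar macrophage gate it also fell by 1.39 ± 0.30 (edgeR adjusted p = 0.0224). Of 17 of these other cycle genes tested in the gate, Ccnd2 was the only 1 called, against 1.29% of all genes. The transcription factor genes Myc and E2f1 fell by 2.09 ± 0.49 and 0.79 ± 0.21, Pclaf by 2.10 ± 0.56 and the phosphatase gene Cdc25b, which activates Cdk1, by 1.73 ± 0.41 (edgeR adjusted p = 0.0223, 0.0365, 0.0344 and 0.0233). In structural cells 2 of 27 passed, against 0.604% of all genes. Cdk6 rose by 1.10 ± 0.18 and the inhibitor gene Cdkn2b fell by 2.40 ± 0.40, with 27.2, 23.1, 18.3, 20.5 and 5.44 CPM in B6→B6 1 to 5 and 4.26, 2.22 and 3.54 CPM in HLA→B6 1 to 3 (edgeR adjusted p = 0.0222 and 0.0234). The structural label pools clusters whose mix differed between the groups. Cluster 0 gave 668 of 2441 such cells in B6→B6 and 1696 of 3073 in HLA→B6, and cluster 2 gave 438 and 91. The part of this make-up in both changes was not tested.

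In the endothelial gate (Cdh5, Cldn5, Tmem100 and Calcrl), no cell of the 5 B6→B6 grafts had 2 or more Mki67 and Top2a UMIs, while 1 of 1662, 1 of 494 and 3 of 231 cells had them in HLA→B6 1 to 3 (0.520 points, exact permutation test, p = 0.0357, the smallest possible, 1 of 159 alternatives and not adjusted). With 1 UMI or more the percentages were 0.719, 0, 0.316, 1.01 and 0 in B6→B6 1 to 5 and 0.722, 0.202 and 3.03 in HLA→B6 1 to 3, and the groups overlapped (exact permutation test, p = 0.357). The difference rests on 5 cells, all of which carried the label myeloid cell. None of the 5514 cells labelled lung structural cell had 2 or more such UMIs, in either group.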

How the data were processed

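Total cells of 8 grafts (5 B6→B6, 3 HLA→B6) were analysed. Per the labels and the study's methods, the authors aligned 10x 3′ reads to mm10 with Cell Ranger, removed free RNA with SoupX, left out barcodes under 200 UMIs and genes in fewer than 3 cells, and deposited UMI counts per gene and cell with cell type labels and B cell subpopulations, which were used as given. Cell names and the table of cells number the HLA→B6 mice differently, and the table, which equals the sample titles, was followed. No column of per-sample values was unmapped (0). Nothing in the labels pairs replicate numbers across groups, and p-values measure the spread between these mice. The members and the lists were chosen with earlier results of these data known.

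A cell was called with a Mki67 or Top2a UMI at 1 UMI or more. Shares were compared over mice with at least 20 cells by two-sided exact permutation tests with Benjamini-Hochberg adjustment within each family. Cells were thinned to 1000 UMIs where depths differed, and shallower cells were left out there. Exact binomial intervals (95%) and the limit of a count of 0 (3 counts) cover counting error only. Doublets (256, 1.23% of cells) were marked by Scrublet in scanpy 1.11.5 and kept, and leaving them out was an alternative. Counts were summed over at least 10 cells per mouse and type, filtered with filterByExpr (minimum count 10), scaled by TMM and tested with edgeR 4.0.16 (quasi-likelihood, adjusted p under 0.05 over all genes). DESeq2 1.42.0 was an alternative, as were no filter, 20 cells, doublets or shared barcodes left out, linked libraries or replicate numbers as a block, and each mouse left out. CPM are counts per 1000000 UMIs of the summed cells and are not scaled for gene length. In group comparisons, members past the threshold and Mki67, Top2a, Pcna and Stmn1 were named, and of other cycle genes up to 10 past the threshold. Members with no such reason, and the genes and gates described as alone or abundant, were named after their values were seen. The edgeR fits of gated cells under the alveolar macrophage and myeloid labels were likewise added after the data were seen. The scripts were tested on simulated data (Python 3.11.15, numpy 2.4.6, scipy 1.17.1, R 4.3.3).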

Additional observations from a re-analysis of the deposited data

Results flagged for a closer look

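Under the label myeloid cell, 64.7% of the cells of B6→B6 4 had a Mki67 or Top2a UMI and the 44 members summed to 14793 CPM. Both values lay far from those of the 4 other B6→B6 grafts, past Dixon's critical value of 0.71 for 5 samples. Of 25 groups tested in this way 2 were past their limit, and chance flags about 1 in 20 groups. Of the 110 cells behind the first value, 102 were in the T cell gate.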

How the results depend on the processing

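Of 159 alternatives over 19 share results, 140 kept the direction and side of the threshold, as did 27 of 27 over the summed levels and 70 of 74 over 14 edgeR results. The cause of the changes was not tested. The difference in shares (percentage points, HLA→B6 minus B6→B6) over all cells became 0.0553 with linked libraries as a block and 0.101 with the replicate block, and that of myeloid cells 7.06 with the replicate block. Counting instead every cell with at least 3 of the 38 members, with or without a Mki67 or Top2a UMI, it became -0.173 in B cells, -0.242 in structural cells, -0.525 in monocytes, -1.38 in NK cells, -0.883 and -1.49 in B cell subpopulations 0 and 1, -0.0545 in the NK cell gate and 3.92 in the monocyte gate. With at least 2 UMIs it became 0.0943 in T cells, 0.0692 in T cell cluster 1, -0.0926 and -0.883 in subpopulations 0 and 1, and 0.520 in the endothelial gate. At 1000 UMIs alveolar macrophages were at -1.86. The monocyte gate was at 0.330 with linked libraries and 0.763 with the replicate block. Leaving out 1 mouse gave -0.782 to 0.244 over all cells, -6.25 to 6.95 in myeloid cells, -1.35 to 7.74 in subpopulation 1, -1.54 to 0.680 in the monocyte gate and -2.30 to 0.204 in the neutrophil gate. Members called by edgeR in alveolar macrophages were 4 with the replicate block and 1 to 14 without 1 mouse. Those in myeloid cells were 1 with the block and 0 to 2. DESeq2 called 0 in the alveolar macrophage gate and 2 in myeloid cells outside the T cell gate. Same-numbered mice correlated at 0.303, 0.397 and -0.141, and B6→B6 2 and HLA→B6 2 also shared 160 barcodes. No label pairs them, and these values do not decide whether the numbers mark pairs. Counts of 2 UMIs in leukocytes, structural cells, monocytes and NK cells, and thinned leukocytes and neutrophils, gave no value. Few cells with a UMI per mouse limit each share.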
